A study of Mus musculus with 4 samples.

Results

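Plvap, Cav1, Cav2, Cavin1, Cavin2, Cavin3, Ehd2, Ehd4 and Pacsin2, the genes of endothelial caveolae and of the diaphragms that close them, were followed through the blood vessel endothelium of the mouse ear skin, cell by cell. The 9 genes were taken by name from the 46517 gene IDs in the count files. Cells came from adult female C57Bl/6 mice, wild-type and untreated, aged 12 to 26 weeks by the labels, with the ears of 6 mice pooled for each of 2 replicates. CD31+/CD45-/Lyve1- cells were sorted into 384-well plates, 2 plates (A and B) per replicate, and each well was sequenced by the Smart-seq2 method, which reads whole transcripts of a cell. The study asked how components of the endothelial barrier are distributed between arteries, capillaries and veins, and the same question was put here to the genes of the route through the cell. The methods name the substrain C57BL/6 J and give a younger age range, so the age is uncertain. There was no treated group, so vessel types within each replicate were compared.

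Caveolae are flask-shaped pits of the plasma membrane that are abundant in endothelium of muscle, fat and skin, and they carry albumin and other cargo, buffer membrane tension and hold signalling proteins. Caveolin-1 (Cav1) is inserted into the inner leaflet and is required for the pit to form in endothelial cells, caveolin-2 (Cav2) joins it in mixed oligomers, and the cavins make up the outer coat. Cavin1 is the cavin without which caveolae are lost, whereas Cavin2 and Cavin3 are recruited through it. EHD2 is an ATPase that rings the neck of the pit and holds it at the surface, EHD4 is a relative that acts in endocytic traffic and can stand in for EHD2, and Pacsin2 is a membrane-bending protein of the neck. PLVAP is the structural protein of the thin diaphragms across caveolae, fenestrae and transendothelial channels, and is well known as a marker of vessels without a blood-brain barrier.

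Each well holds 1 sorted cell, and 701 wells were kept as blood vascular endothelial cells (BECs), 338 in replicate 1 and 363 in replicate 2. To be kept, a well needed reads of 2 or more of the endothelial genes Kdr, Cdh5 and Pecam1, and each of 5 genes of other cells had to stay under 100 CPM (reads of a gene scaled to the same total in each well, its counts per 1e6 reads). Clusters built without the 9 genes and named from fixed markers gave 215 artery-like wells (70 in replicate 1 and 145 in replicate 2), 152 capillary-like wells (129 and 23) and 198 vein-like wells (108 and 90). The other 136 wells, with a median of 33090 reads and with lymphatic, mural and fibroblast genes among those that set them apart, stayed unnamed and were left out. The vein-like wells were led by Sele, Selp and Ackr1, adhesion molecules and a chemokine receptor of venules, together with the activation genes Rcan1, Rgs16, Dusp2 and Myc, and the part of activation in the results was not tested. The artery label was weak in replicate 2, where the 12 artery markers summed to a mean of 4007 CPM in artery-like wells and 3930.3 CPM in vein-like wells. A finer clustering gave narrower classes with 69 artery-like, 154 capillary-like and 120 vein-like wells, and in these the artery markers summed to 8667 and 7229 CPM in artery-like against 1932 and 3944 CPM in vein-like wells. The vein markers summed to 1014 and 1611 CPM against 6887 and 7346 CPM in the same narrower classes, and artery-like values are therefore given for both sets of classes. The capillary markers summed to 15659 and 6097 CPM in capillary-like wells, against 8891 and 1341 CPM in artery-like and 3429 and 1481 CPM in vein-like wells, so they set the class apart within each replicate, although replicate 2 held 23 such wells, 12 on plate A and 11 on plate B.

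The plates of replicate 1 were sequenced deeper, with 74739095 and 63091443 reads against 31864976 and 35546726 reads, and the median kept BEC well had 158217 and 134661 reads against 95398.0 and 91250.0 reads. Named wells of replicate 1 had a median of 4578 genes with a read and 0.308% of reads from spike-in RNA, and those of replicate 2 had 2846 genes and 1.05%. Each value below is set beside that gap between the replicates, whose part in the results was not tested. Median reads in replicates 1 and 2 were 122668 and 87851 in artery-like, 137331 and 113305 in capillary-like and 192864 and 223946 in vein-like wells. Spike-in RNA gave 0.326% and 2.01% of reads in artery-like, 0.370% and 1.08% in capillary-like and 0.234% and 0.566% in vein-like wells. The part of these gaps between classes in the results was not tested. Mural markers summed to 358 to 1561 CPM in the named classes, fibroblast markers to 29.2 to 866 CPM and immune markers to at most 16.9 CPM, and their part in the results was not tested either.

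All 9 genes were detected, and Plvap and Cav1 stood above the rest. Levels between genes were compared per kilobase of exon, as the mean over wells of the 3 classes, with the SD between 2 replicates. Plvap was at 1353 ± 44.9 and Cav1 at 1062 ± 422 CPM per kb, 2 neighbours in the order that did not differ beyond their spread. Cavin3 (349 ± 101 CPM per kb), Cavin2 (329 ± 241), Cav2 (269 ± 116) and Cavin1 (232 ± 92.8) followed, and none of these neighbours differed beyond the spread. These SDs do not pair the genes by replicate. Within replicates 1 and 2, Cav2 was above Cavin1 (351 against 297 and 187 against 166 CPM per kb). Cavin2 against Cav2 turned with the replicate (500 against 351 and 159 against 187). Ehd2 (167 ± 61.8), Ehd4 (88.3 ± 7.61) and Pacsin2 (34.8 ± 14.5) were lowest. The gaps between Cav1 and Cavin3, between Ehd2 and Ehd4 and between Ehd4 and Pacsin2 were larger than the sum of their SDs. The largest count in any named well was 2145 reads for Plvap and 2023 for Cav1.

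**Figure D1:**
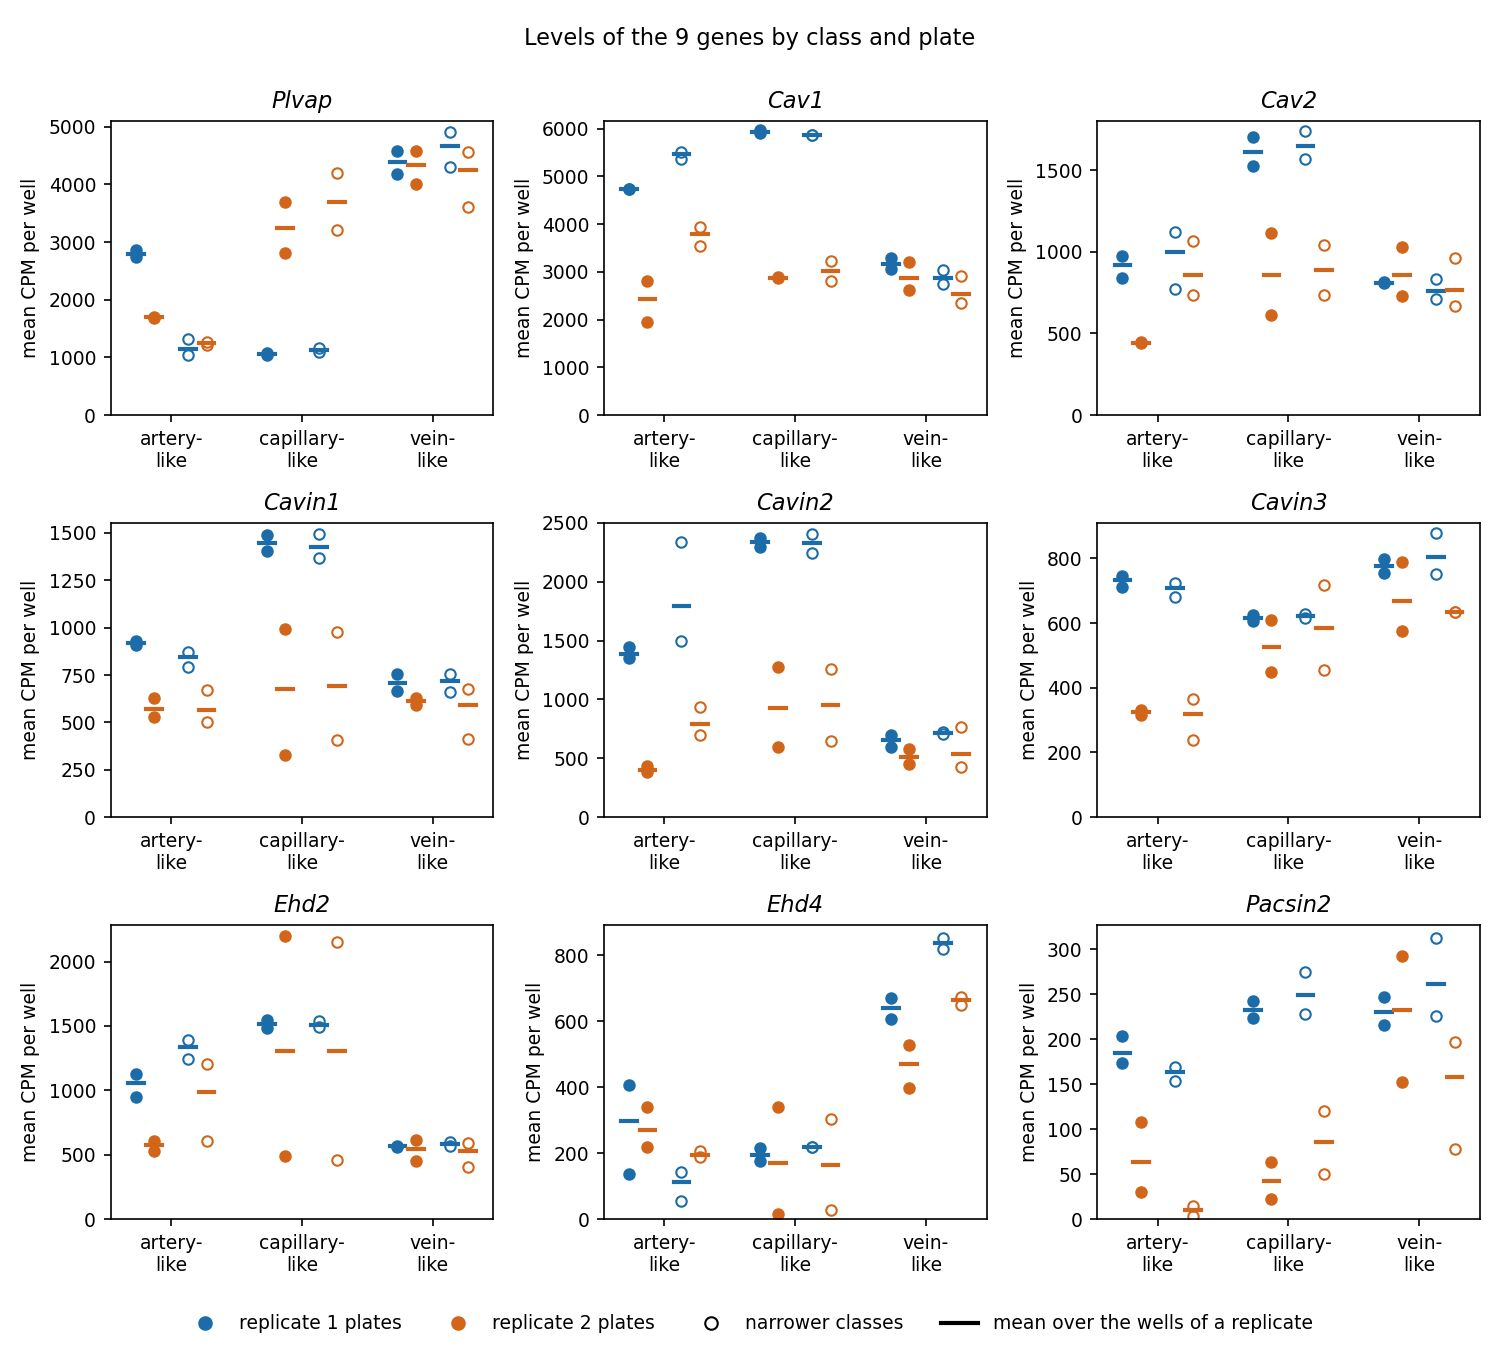
Mean level of each gene on each plate, in CPM per well on axes from 0, for artery-like, capillary-like and vein-like wells, with replicates in colour, bars at the mean over the wells of a replicate and open circles for the narrower classes. Plvap lies at 4004 to 4585 CPM on the vein-like plates, above the artery-like plates at 1689 to 2871 CPM, and its capillary-like plates split by replicate.

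Plvap (ENSMUSG00000034845, chr8:71497765-71511752 on the minus strand of mm10), which makes the diaphragm, was highest in vein-like wells. Mean Plvap levels, listed from here on in the order of plates 1A, 1B, 2A and 2B (replicate, then plate), were 4183, 4575, 4585 and 4004 CPM in vein-like wells. Artery-like wells gave 2871, 2748, 1689 and 1699 CPM. Every vein-like plate was above every artery-like plate. Plvap was higher in deeper wells (r = 0.21 and 0.27 with log2 reads in the 2 replicates), and the part of depth in its class means was not tested. Capillary-like wells were at 1035, 1075, 2811 and 3701 CPM, below the vein-like wells on every plate but far apart between the replicates. In replicate 1 capillary-like wells had the least Plvap of the 3 classes, with a mean of 1057 and a median of 475 CPM, whereas in replicate 2 they stood between the other classes, with a mean of 3237 and a median of 2362 CPM. In the narrower classes Plvap was at 1144 and 1252 CPM in artery-like, 1137 and 3702 CPM in capillary-like and 4663 and 4251 CPM in vein-like wells, so that the artery-like wells of both replicates were lower than in the broader classes. On plate 2B of the narrower classes, capillary-like wells (4202 CPM) were above vein-like wells (3614 CPM).

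Ehd4 (ENSMUSG00000027293, chr2:120089175-120154606, minus strand), the membrane traffic ATPase, was highest in vein-like wells too, at a lower level than Plvap. Vein-like wells held 606, 671, 529 and 396 CPM on the 4 plates. Artery-like wells held 137, 407, 341 and 219 CPM, of which plate B of replicate 1 reached into the vein-like range. Capillary-like wells held 216, 177, 16.4 and 339 CPM, all below the vein-like plates. Among the narrower classes the vein-like plates (649 to 851 CPM) were clear of the artery-like plates (54.2 to 208 CPM) and of the capillary-like plates (27.6 to 303 CPM). The medians show how uneven Ehd4 was among wells: the median vein-like well held 461 and 137 CPM in the 2 replicates, the median artery-like well 25.8 and 7.36 CPM.

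Cav1 (ENSMUSG00000007655, chr6:17306335-17341452, plus strand), the core caveolin, showed another order. In replicate 1 its mean was 5937 CPM in capillary-like, 4735 CPM in artery-like and 3165 CPM in vein-like wells. In replicate 2 the class means were 2878, 2438 and 2878 CPM in that order. The 4 plates gave 4731, 4737, 1940.3 and 2809 CPM in artery-like, 5967, 5911, 2861 and 2896 CPM in capillary-like and 3292, 3052, 2629.8 and 3203 CPM in vein-like wells, so that all classes overlapped. With the narrower classes Cav1 was at 5364, 5513, 3540.5 and 3939 CPM on the artery-like plates and 3035, 2756, 2348 and 2908 CPM on the vein-like plates. There the artery-like plates were all above the vein-like plates.

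The spread of Cav1 over wells also differed between the replicates. In replicate 1 no named well had less than 9.43 on the log2(CPM + 1) scale, with an SD over wells of 0.73, and in replicate 2 the lowest was 0 and the SD 2.59. Of 258 named wells in replicate 2, 70 lay below the lowest well of replicate 1, and 59 of those 70 were artery-like, 7 vein-like and 4 capillary-like. Cav1 was higher in deeper wells in replicate 2 (Pearson r = 0.38 with log2 reads over 258 wells) and lower in them in replicate 1 (r = -0.22 over 307 wells), and the part of depth in the class means of Cav1 was not tested.

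Cav2 (ENSMUSG00000000058, chr6:17281185-17289115, plus strand) lies next to Cav1 on the same strand, with 17219 bases between them, which the antisense gene Gm15581 spans. Capillary-like wells held 1705, 1525, 615 and 1117 CPM of Cav2, artery-like wells 841, 975, 442 and 446 CPM, and vein-like wells 813, 808, 728 and 1028 CPM. In replicate 1 the capillary-like plates were above the others, and in replicate 2 they overlapped the vein-like plates. There the median capillary-like well held 66.2 CPM and the median vein-like well 761 CPM, and the highest capillary-like well on plate B held 10351 CPM. By the narrower classes Cav2 was at 999 and 857 CPM in artery-like and 761 and 764 CPM in vein-like wells of the 2 replicates, so that the artery-like wells of replicate 2 were no longer the lowest.

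RefSeq promoter windows of GRCm38.p6, the 250 bases before the start, were at hand for 7 of the 9 genes, all but Plvap and Cavin3. Those of Cav1 (chr6:17306085-17306334, plus strand) and Cav2 (chr6:17280935-17281184, plus strand) are shown because this pair had the closest co-expression of Cav1 with any gene, and that of Cavin2 (chr1:51288876-51289125, plus strand) because its composition was unlike theirs. Capitals mark 3 promoter motifs on either strand, which do not overlap each other here: the TATA box (searched as TATAAA), the CCAAT box (searched as those 5 letters) and the GC box (searched as GGGCGG).
Cav1: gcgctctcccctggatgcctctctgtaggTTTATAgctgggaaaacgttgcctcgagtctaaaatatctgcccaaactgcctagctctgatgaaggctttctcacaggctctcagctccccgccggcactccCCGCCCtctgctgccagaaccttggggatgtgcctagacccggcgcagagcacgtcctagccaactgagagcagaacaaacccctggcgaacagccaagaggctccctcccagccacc
Cav2: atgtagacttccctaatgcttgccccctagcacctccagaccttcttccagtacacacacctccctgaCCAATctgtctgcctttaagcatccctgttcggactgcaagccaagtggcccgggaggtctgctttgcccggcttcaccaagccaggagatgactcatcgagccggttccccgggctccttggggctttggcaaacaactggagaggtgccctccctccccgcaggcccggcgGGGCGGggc
Cavin2: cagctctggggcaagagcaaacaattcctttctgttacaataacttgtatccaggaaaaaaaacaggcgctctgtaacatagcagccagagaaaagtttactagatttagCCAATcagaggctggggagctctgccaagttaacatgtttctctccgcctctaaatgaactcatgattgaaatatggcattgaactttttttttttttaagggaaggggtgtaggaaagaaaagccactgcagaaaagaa
GC content was 59.6% in the Cav1, 62.0% in the Cav2 and 40.4% in the Cavin2 window, against a median of 52.4% over 32851 windows of the same length. TATAAA was found in 1 of the 7 windows (Cav1, on the minus strand, with its first base 221 bases before the start) and in 12.4% of all windows. CCAAT was found in 6 of 7 and in 33.8% of all windows, and GGGCGG in 6 of 7 and in 32.7%. Cav1 and Cav2 shared GGGCGG, on the minus strand in Cav1 and on the plus strand in Cav2. Such matches are letters in a window and were not tested for binding.

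The cavins coat the caveola. Cavin2 (ENSMUSG00000045954, chr1:51289126-51302960, plus strand) was at 2294, 2369, 598 and 1279 CPM in capillary-like, 1448, 1348, 436 and 380 CPM in artery-like and 597, 701, 450.1 and 581 CPM in vein-like wells. Its capillary-like plates were above the vein-like plates within each replicate and overlapped them across replicates, and 1 well of 8276 CPM weighed on the 11 wells of plate B in replicate 2. Narrower artery-like wells held 1790 and 788 CPM of Cavin2, and narrower vein-like wells 713 and 539 CPM. Cavin1 (ENSMUSG00000004044, chr11:100956733-100970887, minus strand), needed for the coat, was at 1491, 1406, 995 and 327 CPM in capillary-like wells, whose plates of replicate 2 lay on both sides of the vein-like ones (631 and 589.7 CPM). Artery-like wells held 531 to 929 CPM and vein-like wells 589.7 to 757 CPM of Cavin1. Cavin3 (ENSMUSG00000037060, chr7:105480083-105482300, minus strand) was at 317 to 745 CPM on the artery-like, 448 to 626 CPM on the capillary-like and 575 to 796 CPM on the vein-like plates. For the other cavins, artery-like wells of the narrower classes held 845 and 567 CPM of Cavin1 and 709 and 319 CPM of Cavin3, and vein-like wells 717 and 592 CPM and 804 and 635 CPM.

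Among the neck proteins, Ehd2 (ENSMUSG00000074364, chr7:15946958-15967567, minus strand) was at 1544, 1485, 494 and 2198 CPM in capillary-like, 951, 1130.0, 531 and 604 CPM in artery-like and 564, 569, 616 and 451 CPM in vein-like wells. The value of 2198 CPM rested on 1 well with 21558 CPM of Ehd2, which held 1714 of the 2839 Ehd2 reads of capillary-like wells in replicate 2 and was also the highest of these 23 wells in Cav2 and Cavin2, and the median capillary-like well of that plate held 193 CPM. Replicate 1 had no such well, and its capillary-like plates were above its artery-like and vein-like plates. In the narrower classes the artery-like plates held 609.8 to 1390.1 CPM of Ehd2, just above the vein-like plates at 407 to 601 CPM. Pacsin2 (ENSMUSG00000016664, chr15:83375607-83464606, minus strand) was the lowest gene of the set, at 34.8 CPM per kb, and its median was 0 CPM in every class of replicate 2. Its plate means were 30.6 to 203 CPM in artery-like, 22.1 to 243 CPM in capillary-like and 153 to 293 CPM in vein-like wells. With the finer clustering Pacsin2 was at 164 and 10.4 CPM in artery-like and 262 and 158 CPM in vein-like wells.

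Plate means that do not overlap were counted over the 9 genes and over the 14689 genes tested that had no part in the clustering. Here a class is above another only if its lowest plate is above the highest plate of the other. Classes were not paired by plate in this count. In that sense vein-like was above artery-like for 1 of the 9 (Plvap), against 3.18% of all genes. Artery-like was above vein-like for 0 of the 9, against 2.14%. Vein-like was above capillary-like for 2 (Plvap and Ehd4), against 4.64%, and capillary-like above vein-like for 0, against 0.803%. In the narrower classes artery-like was above vein-like for 2 (Cav1 and Ehd2), against 1.06%, and vein-like above artery-like for 2 (Plvap and Ehd4), against 4.75%. There vein-like was above capillary-like for 1 (Ehd4), against 3.5%, and capillary-like above vein-like for 0, against 1.12%. The plates of a replicate share their mice, so 4 plates are 2 independent samples.

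With the reads of each class summed per replicate, edgeR's quasi-likelihood test called none of the 9 genes at an adjusted p under 0.05 in any of the 3 comparisons, and called 0 of 15689 genes in all (0.0%). The fit had 2 residual degrees of freedom. Without adjustment, artery-like against vein-like passed 0.05 for 1 of the 9 (Ehd4) and for 503 of all genes (3.21%). Capillary-like against the mean of the others passed for 2 of the 9 (Cavin2 and Ehd2) and for 658 (4.19%), and any difference between the classes for 3 of the 9 (Cavin2, Ehd2 and Ehd4) and for 550 (3.51%). DESeq2 called 132 and 262 genes by its Wald test and 133 for any difference by a likelihood-ratio test, none of the 9. The limma fit called 0. Over all alternatives the adjusted p of the 9 genes was from 0.348 to 1.

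**Figure D2:**
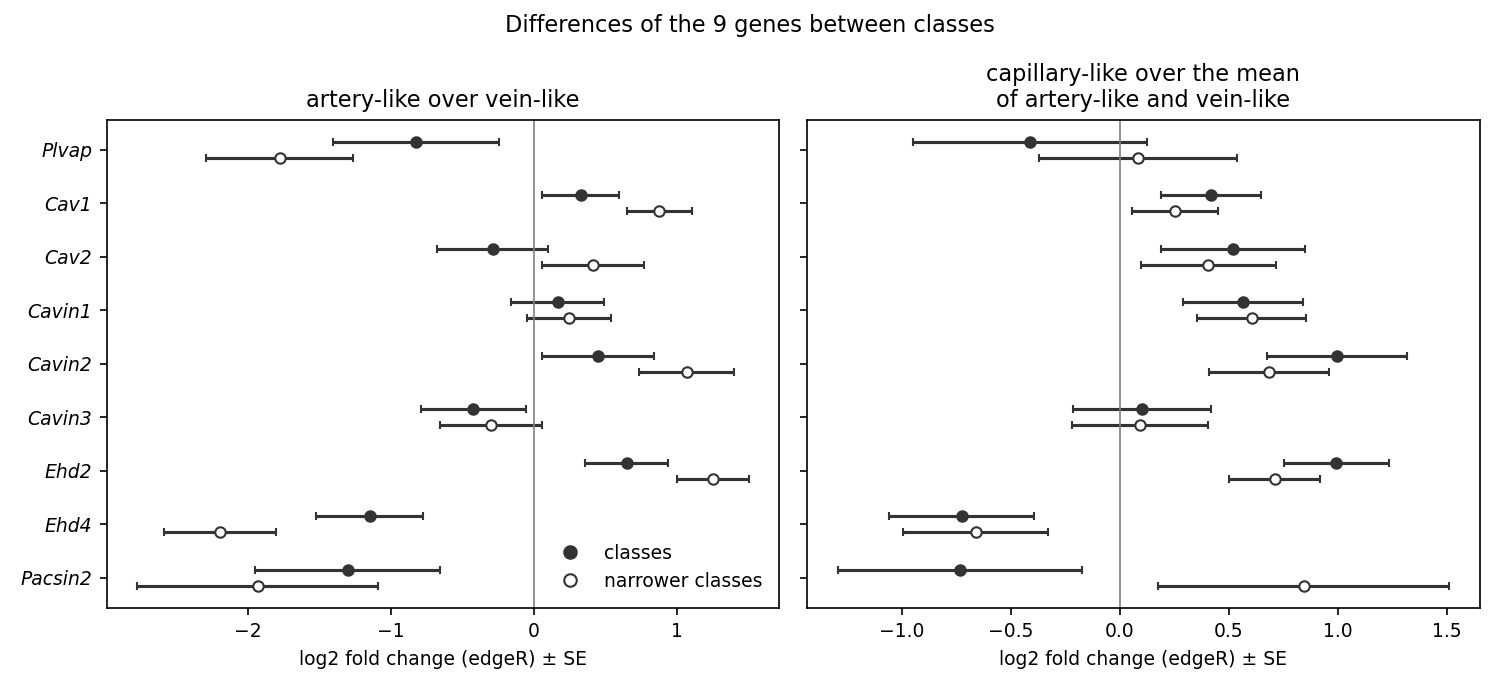
Log2 fold change of each gene in edgeR's fit of 6 sums, with a standard error worked out from the F statistic of the test. Artery-like over vein-like is on the left and capillary-like over the mean of the other classes on the right. Filled points are the classes and open points the narrower classes, in which Plvap is at -1.78 and Ehd4 at -2.19 for artery-like over vein-like.

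Each SE of a fold change is its size divided by the square root of F, the statistic of edgeR's test. The fitted log2 fold change of artery-like over vein-like was -0.82 ± 0.58 (SE) for Plvap, -1.15 ± 0.37 for Ehd4 and -1.30 ± 0.65 for Pacsin2, each with an adjusted p of 1. It was 0.65 ± 0.29 for Ehd2, 0.45 ± 0.39 for Cavin2 and 0.33 ± 0.27 for Cav1, also with an adjusted p of 1. The direction turned with the replicate for Cavin2 (1.16 in replicate 1 and -0.20 in replicate 2), Cav1 (0.71 and -0.02), Cav2 (0.25 and -0.72) and Cavin1 (0.47 and -0.10). Plvap was at -0.50 and -1.36, and the values of Pacsin2 (-0.16 and -2.15) and Cavin3 (-0.06 and -0.84) rested on replicate 2. Cav2 (-0.29), Cavin1 (0.17) and Cavin3 (-0.42) were smaller or close to their SE (0.39, 0.32 and 0.37). The median over the 9 was -0.29, beside -0.06 over all genes. In the narrower classes the differences were larger, at -1.78 ± 0.51 for Plvap (adjusted p = 0.836), -2.19 ± 0.39 for Ehd4 (0.499), 1.253 ± 0.25 for Ehd2 (0.762), 1.07 ± 0.33 for Cavin2 (0.836) and 0.88 ± 0.23 for Cav1 (0.836), and Cav2 turned to 0.41 ± 0.36. Plvap fitted at 0.11 where the limit on genes of other cells was 10 CPM, a setting that left 18 wells of replicate 1, was clustered at resolution 2.0 instead of 0.4 and took classes from 2 instead of 10 wells in a replicate.

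Capillary-like over the mean of the others was 0.997 ± 0.32 for Cavin2, 0.99 ± 0.24 for Ehd2, 0.57 ± 0.28 for Cavin1, 0.52 ± 0.33 for Cav2 and 0.42 ± 0.23 for Cav1, each with an adjusted p of 0.889. Ehd4 (-0.72 ± 0.33) and Pacsin2 (-0.73 ± 0.56) pointed the other way with the same adjusted p, Pacsin2 at -0.07 in replicate 1 and at -1.31 in replicate 2, where capillary-like wells held 110 reads of it, and Cavin3 was at 0.10 ± 0.32 (0.964). Plvap was at -0.41 ± 0.54 (0.902), but at -1.72 in replicate 1 and 0.61 in replicate 2. The 9 genes had a median of 0.42, beside -0.19 over all genes. The values of Ehd2, Cavin2 and Cav2 rested in part on the well with the most Ehd2. Without it they were 0.38 ± 0.35, 0.76 ± 0.36 and 0.16 ± 0.45 (adjusted p = 0.892, 0.892 and 0.96), and neither Ehd2 nor Cavin2 passed 0.05 without adjustment. Cav2 was at 0.96 in replicate 1 and 0.07 in replicate 2. The narrower classes, which also held that well, gave 0.71 ± 0.21 for Ehd2, 0.68 ± 0.27 for Cavin2, 0.61 ± 0.25 for Cavin1, 0.41 ± 0.31 for Cav2 and 0.25 ± 0.20 for Cav1, each with an adjusted p of 0.973. There the caveolins turned with the replicate, with Cav1 at 0.53 and -0.03 and Cav2 at 0.94 and -0.20, and the fitted direction reversed for Pacsin2 (0.84 ± 0.67) and Plvap (0.086 ± 0.45).

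Shares of wells with a read were compared after each well was thinned to 20000 reads, leaving out 16 shallower wells, all of replicate 2. Plvap and Cav1 were read in at least 90.2% of thinned wells in every class and replicate, but Plvap in 30 of 39 (76.9%) of the narrower artery-like wells of replicate 2. For Ehd4 the thinned share was 77.8% and 57.3% of vein-like wells in the 2 replicates, 52.9% and 41.4% of artery-like wells, and 53.5% and 50.0% of capillary-like wells. Exact 95% intervals in replicate 1 were 68.8 to 85.2% for vein-like and 40.6 to 64.9% for artery-like wells, and they did not overlap, whereas in replicate 2 they were 46.4 to 67.7% and 32.9 to 50.2% and did. These intervals cover counting error only. Without thinning the vein-like shares were 97.2% and 73.3% and the artery-like shares 78.6% and 57.9%. Thinned shares of Ehd4 in the narrower classes were 95.4% and 67.3% of vein-like and 44.8% and 28.2% of artery-like wells. Pacsin2 was read in 54.6% and 28.1% of thinned vein-like wells, 37.1% and 18.05% of artery-like wells and 43.4% and 15% of capillary-like wells, with 66.2% and 23.6% of vein-like and 34.5% and 7.69% of artery-like wells in the narrower classes. Cav2 split by replicate, with a read in 97.1% and 55.6% of artery-like, 99.2% and 55% of capillary-like and 92.6% and 84.3% of vein-like wells. Its thinned share in the narrower classes was 93.1% and 74.4% for artery-like and 95.4% and 87.3% for vein-like wells.

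**Figure D3:**
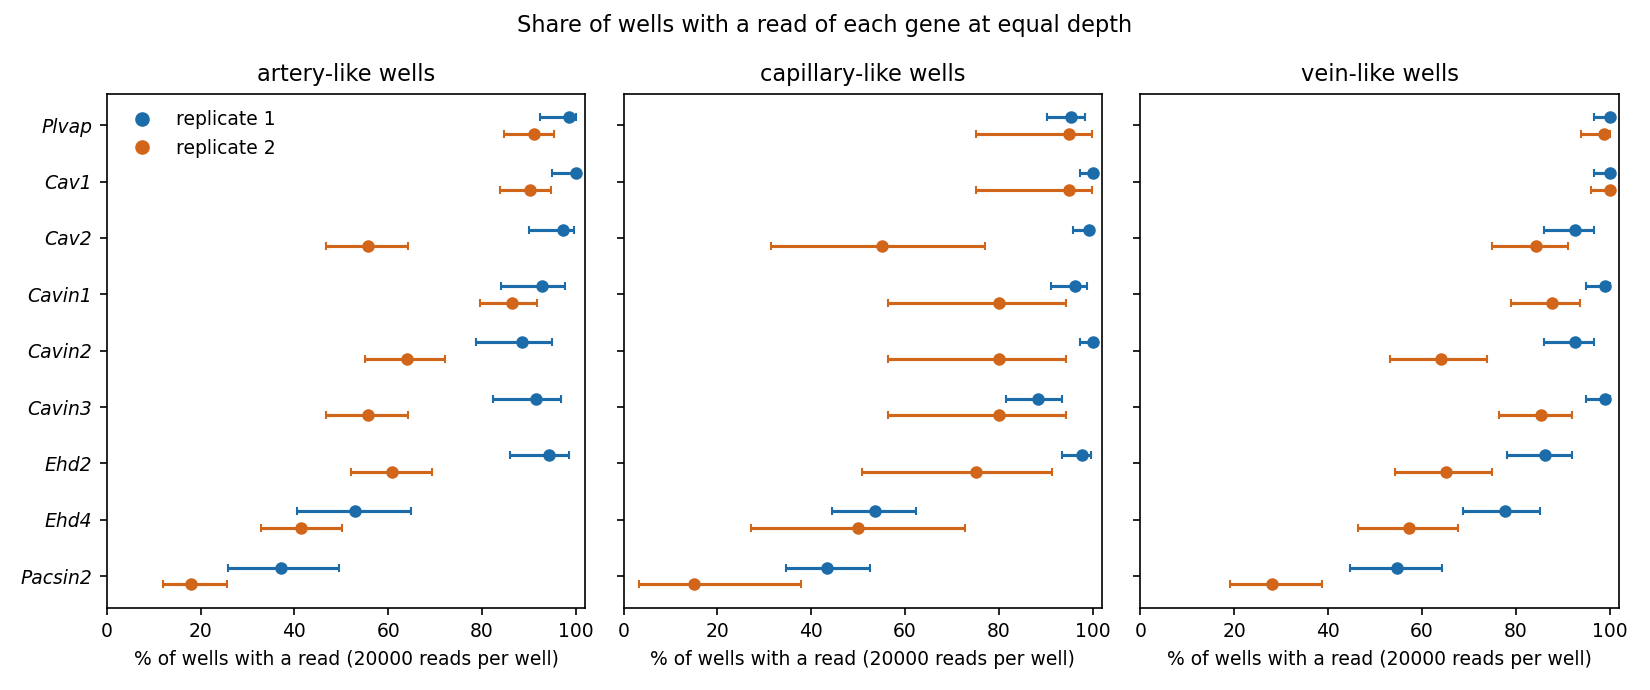
Share of wells, in percent, with a read of each gene after every well was thinned to 20000 reads, by class and replicate, with exact 95% intervals. Ehd4 and Pacsin2 have the lowest shares in all classes, and replicate 2 lies below replicate 1 for all 9 genes in artery-like wells.

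The share of Plvap, an endothelial gene, was set beside that in mural cells, the smooth muscle cells and pericytes of the vessel wall. In 8 and 38 mural wells (at least 300 CPM of Pdgfrb or Kcnj8 and under 100 CPM of Pecam1), Plvap was read in 100% of wells at their own depth and in 87.5% and 47.4% of thinned wells. The median mural well held 89.8 and 30.1 CPM of Plvap and had 197462 and 170239 reads, so a read of Plvap is not a sign of expression, and its class means stood above the mural means of 491 and 107 CPM in every class and replicate. Ehd4 was read in 25% and 18.4% of thinned mural wells, Pacsin2 in 25% and 23.7% and Cav2 in 75% and 57.9%. Mean Ehd4 in mural wells was 216 and 68.8 CPM, against 195 and 171 CPM in capillary-like wells, and was below the artery-like and vein-like means in each replicate. Mural cells have caveolae of their own, and mural wells held means of 712 and 421 CPM of Cav2 and 91.8 and 250.4 CPM of Pacsin2, so for these genes the mural share is not a background. The same holds for Cav1, of which mural wells held 2191 and 1510 CPM. Whether reads passed between wells of a plate was not tested. In 11 and 57 lymphatic endothelial wells (at least 100 CPM of Prox1 and of Mmrn1) Plvap was at 950 and 291 CPM and Cav1 at 1790 and 892 CPM.

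The number of the 9 genes read in a thinned well depends on the share of each gene, with the same doubt about background. The median well held a read of 8 of the 9 genes in each class of replicate 1, and of 6, 6 and 7 genes in artery-like, capillary-like and vein-like wells of replicate 2. All 9 were read in 42 of 108 vein-like wells, 26 of 129 capillary-like wells and 13 of 70 artery-like wells of replicate 1, and in 7 of 89, 0 of 20 and 1 of 133 wells of replicate 2.

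**Figure D4:**
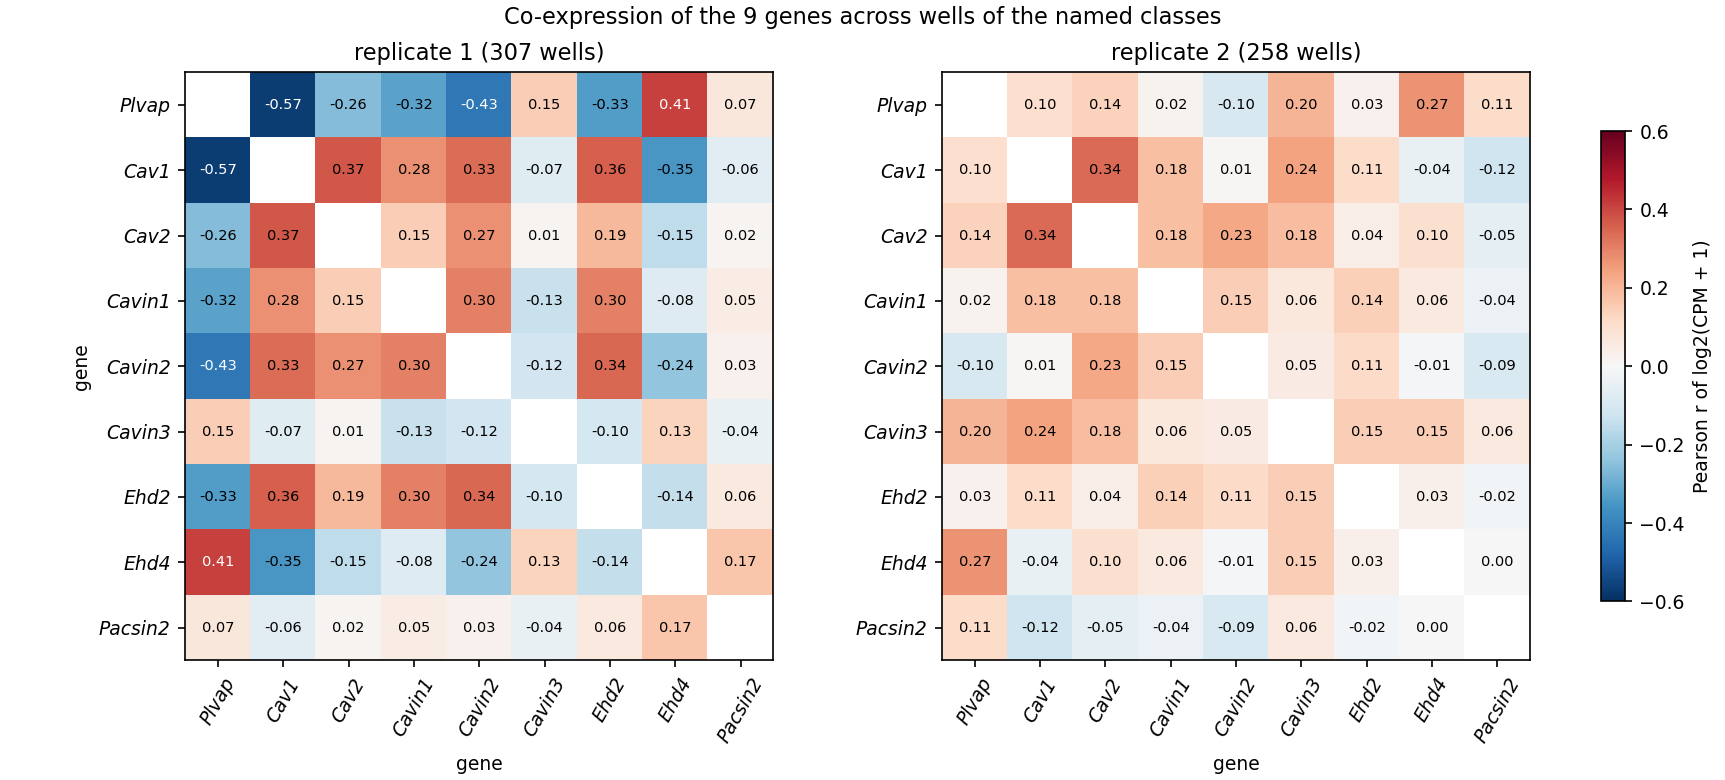
Pearson r between the 9 genes over wells of the 3 classes, on log2(CPM + 1), in replicate 1 (307 wells) and replicate 2 (258 wells). Plvap against Cav1 is at -0.57 in replicate 1 and 0.10 in replicate 2, and Cav1 against Cav2 is above 0.3 in both.

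Levels were then correlated over wells of the 3 classes in each replicate, as a description, since wells of a replicate share mice, plates and a range of depths. Over the 36 pairs the median r was 0.02 in replicate 1 and 0.08 in replicate 2, with 20 and 28 pairs above 0. Cav1 and Cav2 had r = 0.37 over 307 wells and 0.34 over 258 wells, and 0.30 to 0.42 on the 4 plates. Of 4661 genes read in at least 20% of wells in both replicates, Cav2 was the most like Cav1, where likeness is the lower r of the replicates, and it kept that rank after thinning. Within classes the r of the pair was 0.16, 0.30 and 0.31 in artery-like, capillary-like and vein-like wells of replicate 1, and 0.34, 0.10 and 0.14 in replicate 2. Over the narrower classes it was 0.44 and 0.19. Reads of Gm15581, which overlaps both genes on the other strand, came to 128 in all wells, beside 340305 reads of Cav1 in named wells. Strand was not recorded, so this count cannot measure antisense reads within the exons of Cav1 and Cav2.

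Plvap and Cav1 ran against each other in replicate 1. Their r was -0.57 on each of its plates and -0.38, -0.41 and -0.29 within artery-like, capillary-like and vein-like wells. In replicate 2 it was 0.10 over all named wells, 0.18 and 0.04 on the plates and -0.05, 0.10 and -0.16 within the classes. Over the narrower classes r was -0.61 and -0.05, and with the unnamed wells added it was -0.36 and 0.27. By the lower r of the replicates, Cav1 ranked last of the 4661 genes in likeness to Plvap, a rank set by replicate 1 alone.

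**Figure D5:**
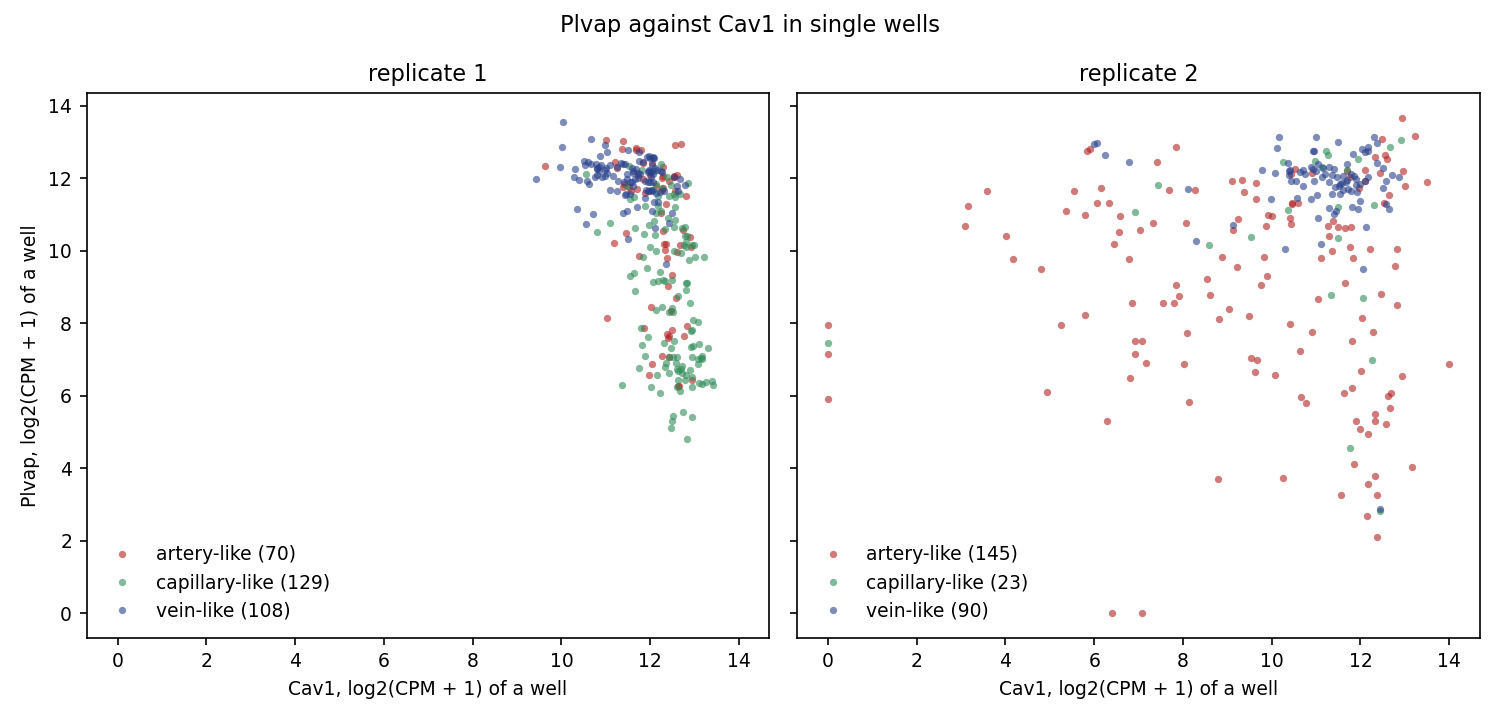
Cav1 against Plvap in each named well, both as log2(CPM + 1), for replicate 1 and replicate 2, with the class of each well marked. In replicate 1 every well lies at or above 9.43 for Cav1, and in replicate 2 70 wells lie below that value.

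Plvap and Ehd4 varied together, with r = 0.41 and 0.27 in the 2 replicates and 0.20 to 0.42 on the plates, and Ehd4 ranked 20 of 4661 in likeness to Plvap. Both followed the summed vein markers, at r = 0.41 and 0.36 for Plvap and 0.45 and 0.40 for Ehd4. Cav1 went against them, at -0.57 and -0.22. With the capillary markers the replicates split: Plvap had r = -0.55 and 0.15, Cav1 0.46 and 0.10 and Cavin2 0.53 and 0.12. Cavin2 and Plvap had r = -0.43 and -0.10. Cav1 and Cavin1 had r = 0.28 and 0.18, rank 16 for Cav1, and Cav1 and Ehd2 0.36 and 0.11, rank 53. Among the cavins, Cavin1 and Cavin2 had r = 0.30 and 0.15 (0.20 and 0.05 after thinning), Cavin1 and Cavin3 -0.13 and 0.06, and Cavin2 and Cavin3 -0.12 and 0.05.

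The 5 genes most like Plvap were Apoe (likeness 0.40), an apolipoprotein, Scarb1 (0.36), a lipoprotein receptor, Gm15701 (0.35), Abcg2 (0.34), an efflux transporter, and Tmsb10 (0.33), an actin-binding peptide. The 95th percentile over all genes was 0.16. After Cav2, the genes most like Cav1 were Tspan13 (0.34), Cd200 (0.33), Sparc (0.29) and Cldn5 (0.28), the tight junction protein of the study, against a 95th percentile of 0.04. For Cavin1 they were Ltbp4 (0.18), Cav1 (0.18), Slfn5os (0.18), Myadm (0.17) and Epas1 (0.17), weak values whose order changed with thinning, where Slfn5os ranked 653.

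Of 36 related trafficking genes, 29 had enough counts to test and 0 were called by edgeR in any comparison. Without adjustment 0 passed 0.05 in artery-like against vein-like, 6 passed in capillary-like against the others (Kdr, Nrp1, Nos3 and Cltc higher, Ehd3 and Stoml2 lower) and 2 for any difference (Cltc and Nrp1), against 3.21%, 4.19% and 3.51% of all genes. Their median log2 fold change was -0.15 for artery-like over vein-like and 0.11 for capillary-like over the others. The muscle members of the families were near absent, with Cav3 at 0.13 CPM per kb and Cavin4 listed at 0, as was Mfsd2a (1.19 CPM per kb), the lipid transporter that holds down caveolae in brain endothelium.

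The highest of each group by level per length were the EHD proteins Ehd1 (49.7 ± 54.4 CPM per kb, SD, 2 replicates) and Ehd3 (4.18 ± 1.84), and Nos3 (54.5 ± 15.8), the nitric oxide synthase that binds caveolin-1, with the scission GTPase Dnm2 (34.0 ± 16.1). The flotillin Flot2 was at 64.9 ± 10.3 and Stom at 43.3 ± 4.14 CPM per kb. The clathrin adaptor subunits Ap2s1 and Ap2m1 were at 76.5 ± 20.9 and 73.2 ± 24.5 CPM per kb, below every caveolin and cavin of the set. Kdr, the main VEGF receptor, and its co-receptor Nrp1 were at 69.1 ± 3.49 and 62.1 ± 28.0 CPM per kb. Nrp1 was at 1214 and 1085 CPM in capillary-like wells of the 2 replicates, 722 and 331 CPM in artery-like and 359 and 375 CPM in vein-like wells, and Kdr at 856 and 924, 519 and 567, and 480 and 576 CPM. By these means both were above the other classes in each replicate, with fitted differences of 1.30 ± 0.37 and 0.77 ± 0.26 that did not pass after adjustment. The median capillary-like well held 647 and 161 CPM of Kdr in the 2 replicates, against 353 and 141 CPM in artery-like and 322 and 269 CPM in vein-like wells. In replicate 2 the median was thus below that of vein-like wells. Kdr was also 1 of the 3 genes used to keep wells.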

How the data were processed

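Single cells of 2 replicates, 2 plates each, were measured by Smart-seq2. The authors aligned single reads to mm10 with TopHat2 2.1.1, removed duplicates with SAMtools 0.1.18, which holds down short abundant transcripts, and deposited raw read counts per gene and well from featureCounts (Subread 1.4.6-p5). The annotation release is not given in the sources used here. Smart-seq2 does not mark strand, so reads of overlapping antisense genes cannot be told apart. The 9 genes and all lists were chosen with earlier results of these data known. The text names all 9 genes, of 36 listed related genes the 2 highest per length in each list (none was called), and the 5 genes most like Plvap, Cav1 and Cavin1. Related genes that passed without adjustment, and Cav3, Cavin4 and Mfsd2a, were named after their values were seen.

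Of 46517 gene IDs, 46005 had a symbol, and the 92 spike-in sequences were not counted in library sizes. Wells were kept from 600 reads and with 500 to 8000 genes detected, if 2 or more of 3 BEC genes were read and none of Kcnj8, Pdgfrb, Ptprc, Prox1 and Lyve1 reached 100 CPM. No 2 wells held identical counts, and doublets were not called. Wells were normalized with scran 1.30.0 and clustered within a shared space by leidenalg 0.10.2 (1000 variable genes, 15 components, 15 neighbours, resolution 0.4, or 0.6 for the narrower classes). A cluster was named from at least 3 markers at 1.25 times the other wells of the same replicate. CPM and shares are per well, with exact 95% binomial intervals that cover counting error only.

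Raw counts were summed by class and replicate into 6 sums of 2595550 to 22387686 reads, and edgeR 4.0.16 (quasi-likelihood, TMM, replicate as a block, at least 10 counts in 2 sums, Benjamini-Hochberg adjustment, 0.05) gave each adjusted p. The block follows the mice: the vessel types within a replicate were sorted from 1 pool, and their deviations correlated at r = 0.161, 0.145 and 0.085. Whether the pools were separate experiments is known only from the labels' replicate numbers. DESeq2 1.42.0, limma 3.58.1 on log2(CPM + 1), other limits, classes, filters and depths were alternatives. The narrower classes for levels and co-expression, co-expression over all kept wells, and a fit without the well highest in Ehd2 were added after seeing the data. On data simulated for artery-like against vein-like, the edgeR step recovered 1.1% of 91 genes changed 2-fold and 11.9% of 109 changed 4-fold among 15060 genes at the estimated spread, and 29.7% of 101 and 99% of 99 among 15344 genes at a dispersion of 0.05. Of the genes called, 5 of 19 at the estimated spread and 5 of 133 at 0.05 had not been changed. The study's own test over cells was not repeated, since cells are not replicates.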

Additional observations from a re-analysis of the deposited data

Results flagged for a closer look

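Among 36 groups of 4 plate means (9 genes in each of the 3 classes and in all named wells), 1 had a plate further from the others than Dixon's 95% critical value allows. In capillary-like wells Cavin3, a cavin of the caveola coat, was at 448 CPM on plate A of replicate 2, against 626 and 607 CPM on the plates of replicate 1 and 611 CPM on plate B of replicate 2. That plate held 12 capillary-like wells. About 1 in 20 such groups passes this value where nothing stands apart.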

How the results depend on the processing

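None of the 9 genes was called under any alternative, and 205 of 216 fitted log2 fold changes under the alternatives kept their sign. With the limit on genes of other cells at 10 CPM, 3 choices changed together: 18 wells of replicate 1 were left, the rule for the resolution gave 2.0 instead of 0.4, and classes were taken from 2 instead of 10 wells in a replicate. There artery-like over vein-like turned to 0.11 for Plvap, 0.36 for Cav2 and 0.012 for Cavin3, and capillary-like over the others to -0.10 for Cavin3. For Cav2 artery-like over vein-like was 0.059 at a limit of 300 CPM, 0.54 with classes from marker scores and 0.41 in the narrower classes. In these, capillary-like over the others was 0.086 for Plvap and 0.84 for Pacsin2. Cavin3 turned to -0.058 in that comparison with limma and -0.0091 with thinned wells. The cause of these turns was not tested. Leaving out the well with the most Ehd2, an alternative chosen after seeing the data, turned no value.

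Leaving out a replicate turned 6 of 36 values, which then rest on 1 replicate with no test. Artery-like over vein-like ranged from -0.019 (without replicate 1) to 0.71 for Cav1, from -0.72 to 0.25 (without replicate 2) for Cav2, from -0.10 (without replicate 1) to 0.47 for Cavin1 and from -0.20 (without replicate 1) to 1.16 for Cavin2. Capillary-like over the others ranged from -1.72 to 0.61 (without replicate 1) for Plvap and from -0.24 (without replicate 2) to 0.44 for Cavin3.

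The count of genes called, 0 in the 3 comparisons, became 2, 40 and 42 at the limit of 10 CPM with the finer clustering. With DESeq2 it was 132 and 262 by the Wald test and 133 for any difference by a likelihood-ratio test. It was 4, 7 and 11 with no filter on low counts and 5, 3 and 9 with sums per plate and a plate block. For any difference it was 1 at a limit of 300 CPM, and with thinned wells 2 for capillary-like and 4 for any difference. Without the replicate block it was 0, 0 and 0, and Plvap was at -0.87 for artery-like over vein-like. The block changed no call. Without 1 replicate no test of counts could be fitted. Of the class levels 41 of 135 moved by more than 1 SD, as did 15 of 27 shares and 18 of 180 correlations. The median named well of replicate 2 held 0 CPM of Pacsin2 and 14.8 CPM of Ehd4. At 20000 reads a well Pacsin2 was read in 45.9% of named wells of replicate 1 and 21.5% of replicate 2, against 78.8% and 36.4% at their own depth. The cause of this gap between the replicates was not tested.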
